A study of Homo sapiens with 3 samples.

Results

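The genes described here form the MYC, MAX and MXD network, a set of transcription factors of the basic helix-loop-helix leucine zipper class, measured in PANC-1, a cell line derived from a human pancreatic carcinoma. The 10 members were fixed by name (MYC, MYCN, MYCL, MAX, MXD1, MXI1, MXD3, MXD4, MNT and MLX) and found on the arrays by the RefSeq transcript accession of each probe. All 10 had a probe, and together they were read by 19 of the 34041 probes used, among 19699 genes that could be named. RNA was measured on 3 Agilent arrays, with 1 array each for control cells, for cells given cantharidin (CAN) and for cells given okadaic acid (OA). The sample labels give 20 µM for each agent and a treatment of 24 h, and they name no agent for the control. The treatment protocol is worded so that the dose may have been meant for cantharidin alone. Both agents inhibit protein phosphatase 2A (PP2A), and the comparison asks what they change in the transcriptome. Each group was a single array, so the spread between cultures is unknown and no difference could be tested. All arrays lay on 1 slide, where slide position and group cannot be told apart.

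In this network, MAX is the shared partner. MYC, MYCN and MYCL pair with MAX, bind the E-box sequence CACGTG and activate genes of growth, metabolism and ribosome synthesis. MXD1, MXI1, MXD3, MXD4 and MNT also pair with MAX but recruit the SIN3 and histone deacetylase corepressors to the same sites, and MXD proteins are known to replace MYC as cells stop dividing and differentiate. MLX is a MAX-like protein that pairs with MXD1, MXD4, MNT and the glucose-sensing factors MLXIP and MLXIPL. PP2A is known to remove a stabilising phosphate from the MYC protein, a step that RNA arrays do not read. MYC is widely overexpressed in pancreatic cancer.

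Because the members' proteins bind the E-box, the 250 bases before the start of each gene were searched for CACGTG, which reads the same on both strands, and for the GC box GGGCGG on either strand. RefSeq windows (GRCh38.p14) were held for 9 members, in 12 windows, and not for MYC. CACGTG was found in 3 of the 12 windows, those of MXD4, MNT and MLX, and in 6.34% of all 35116 windows. The GC box was in 11 of the 12 windows and in 42.6% of all windows. No match of one motif overlapped a match of the other in the members' windows. The windows of the E-box carriers are shown with that of MXD1, the member with the largest increase under either agent, which held no CACGTG. Capitals mark both motifs, and each sequence ends at the base before the gene's start.
MXD4 (chr4:2262110-2262359, minus strand): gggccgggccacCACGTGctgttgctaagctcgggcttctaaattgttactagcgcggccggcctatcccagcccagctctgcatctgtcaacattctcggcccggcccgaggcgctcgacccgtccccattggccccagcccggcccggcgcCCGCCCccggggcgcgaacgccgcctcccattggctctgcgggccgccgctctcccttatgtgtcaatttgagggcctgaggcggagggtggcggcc
MNT (chr17:2401061-2401310, minus strand): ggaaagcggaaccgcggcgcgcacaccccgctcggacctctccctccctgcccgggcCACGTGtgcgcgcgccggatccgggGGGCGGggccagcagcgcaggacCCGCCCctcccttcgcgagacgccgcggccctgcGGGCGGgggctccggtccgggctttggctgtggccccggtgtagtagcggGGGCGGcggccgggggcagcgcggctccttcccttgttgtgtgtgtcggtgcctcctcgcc
MLX (chr17:42566850-42567099, plus strand): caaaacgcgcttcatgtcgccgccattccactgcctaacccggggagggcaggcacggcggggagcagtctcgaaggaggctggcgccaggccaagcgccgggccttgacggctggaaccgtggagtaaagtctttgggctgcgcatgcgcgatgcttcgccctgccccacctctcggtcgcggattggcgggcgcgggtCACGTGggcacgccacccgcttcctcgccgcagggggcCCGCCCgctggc
MXD1 (chr2:69914859-69915108, plus strand): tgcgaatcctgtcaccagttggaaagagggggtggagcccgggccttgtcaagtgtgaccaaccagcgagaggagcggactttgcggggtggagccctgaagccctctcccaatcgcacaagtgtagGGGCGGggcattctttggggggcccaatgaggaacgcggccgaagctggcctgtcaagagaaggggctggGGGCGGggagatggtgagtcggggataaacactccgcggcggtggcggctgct
The E-box began 238 bases before the start in MXD4, 193 bases in MNT and 50 bases in MLX. A match describes the letters only, and binding was not measured.

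Values are given as the processed intensity of each array. Fold changes and log2 differences were computed on log2 intensity minus the 75th percentile of the same array, which lay at 784, 713 and 936 for control, CAN and OA. Since intensity depends on the probe, levels are compared between arrays and never between probes. A gene is represented by its brightest probe. A difference is counted from 1.5-fold, the threshold of the study's own array analysis. The epithelial and mesenchymal markers of the line (KRT7, KRT8, KRT18, KRT19 and VIM) were well above background on all 3 arrays, with intensities from 2503 to 311685. Among 9 markers of blood, endothelium, islet and acinar cells, 2 were above background on no array and the other 7 were above it on all 3, with intensities from 110 to 792. The summed intensity of these 9 was 2348, 2461 and 2717 on the control, CAN and OA arrays, and its part in the results was not tested.

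Under CAN, 9 members could be compared with control. Of these, MYCL, MAX and MXD1 were at least 1.5-fold higher and MYC, MXI1, MXD3 and MLX at least 1.5-fold lower, while MXD4 and MNT stayed within 1.5-fold. Across all 16644 genes compared, 27.5% were higher and 34.1% lower, so 7 of 9 members differed by 1.5-fold or more beside 61.6% of all genes. Probe by probe, 6 of 17 were higher and 8 lower, beside 26.4% and 33% of all 26769 probes compared (59.5% in either direction). Under OA, MYCL, MAX and MXD1 were at least 1.5-fold higher and MYC, MXD3 and MLX at least 1.5-fold lower. The background in that comparison was 28.1% higher and 28.8% lower of 16166 genes (56.9% in either direction). Of the 17 probes, 6 were higher and 3 lower, beside 26.5% and 27.7% of 25714 probes (54.2% in either direction). Both comparisons use the same control array. The median log2 difference of the 9 members was -0.21 under CAN and 0.19 under OA, beside -0.16 and 0.01 over all genes compared. RNA came from whole cultures, in which fewer cells of a type and less RNA per cell cannot be told apart.

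Among the 19 probes, 17 were well above background on all 3 arrays and 2 on none. The latter were the MYCN probe and the MXI1 probe designed against NM_005962. MYCN, the family member best known from neuroblastoma, therefore had no measured level in these cells, and no fold is given for it.

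**Figure D1:**
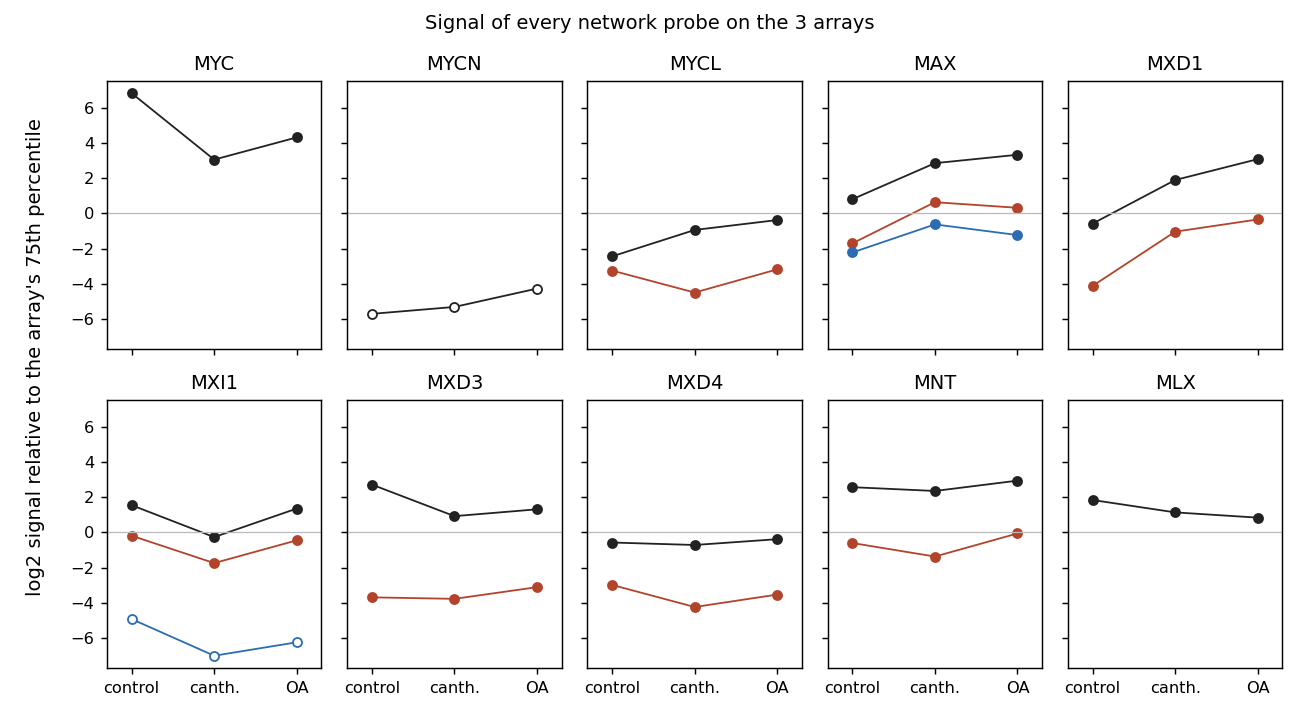
Signal of each network probe on the control, cantharidin (canth.) and okadaic acid (OA) arrays, as log2 relative to the array's 75th percentile (grey line at 0), with 1 line per probe, open circles where the signal was not well above background and no error bars, since each point is 1 array. MYC drops from 6.81 to 3.05 and 4.31, whereas every MAX and MXD1 probe is higher on both treated arrays than on control.

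MYC, the activating arm of the network and the best known oncogene in it, had the largest change of the members under CAN. Its single probe was printed in 10 spots per array, which gives a spread for this gene. The spots ranged from 84507 to 97174 with a median of 86392 in control cells, from 5279 to 6426 with a median of 5875 under CAN and from 17339 to 19084 with a median of 18667 under OA. The spots of the 3 arrays did not overlap, and the SD of log2 intensity among spots was 0.07, 0.10 and 0.05. MYC was 13.6-fold lower under CAN (log2 difference -3.77) and 5.69-fold lower under OA (-2.51). These spots are technical repeats of 1 RNA sample, so they measure spot noise and not the spread between cultures.

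The MYC signal was 2523 times the background limit of the control array (its dimmest signal called well above background), 269 times that of the CAN array and 319 times that of the OA array, so it remained far above background after treatment. A lower log2 difference than that of MYC was seen for 196 of 16644 genes under CAN and 573 of 16166 under OA. OA left 2.39-fold more MYC signal than CAN (log2 difference 1.26).

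**Figure D2:**
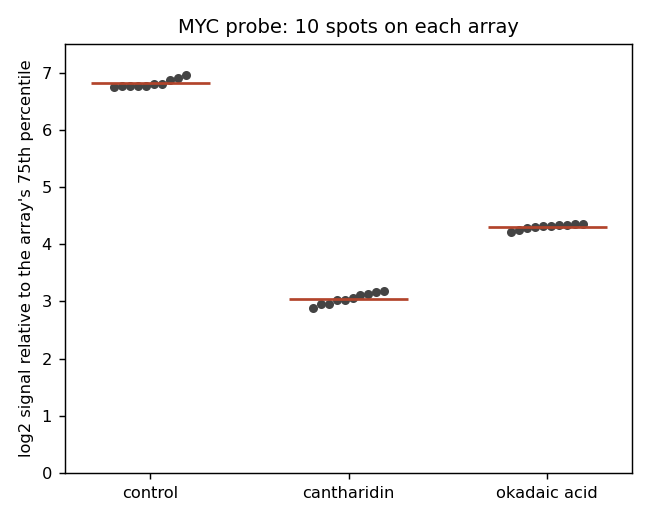
The 10 spots of the MYC probe on each array, ordered by signal, as log2 relative to the array's 75th percentile, with the mean as a line. The spots of each array lie close together (SD 0.07, 0.10 and 0.05), and the arrays follow the order control, okadaic acid, cantharidin.

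The genes whose pair of differences from control lay nearest to that of MYC, among 14222 genes well above background on all 3 arrays, were E2F2, GINS2 and BUB1B. E2F2 drives genes of S phase, GINS2 is a subunit of the replicative helicase complex, and BUB1B is a spindle checkpoint kinase. Their Euclidean distances to MYC, over the CAN and OA log2 differences, were 0.09, 0.13 and 0.15. E2F2 had log2 differences of -3.78 and -2.60, with intensities of 1117, 74.1 and 221 on the control, CAN and OA arrays. The likeness rests on 3 arrays only.

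MYCL, a MYC paralogue with a narrower tissue range, was dim, and its probes disagreed. The probe designed against NM_001033081 read 144 in control, 370 under CAN and 719 under OA, which was 2.82-fold and 4.17-fold higher than control. The probe designed against NM_005376 read 82.5, 31.6 and 103, which was 2.37-fold lower under CAN and within 1.5-fold under OA. With the median over both probes, the log2 difference was 0.13 under CAN and 1.07 under OA, so the count of MYCL as higher under CAN depends on the probe.

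MAX, the obligate partner of MYC and of the MXD proteins, was higher with each of its probes on each treated array. The brightest probe (NM_145113) read 1366 in control cells, 5122 under CAN and 9356 under OA, or 4.13-fold and 5.74-fold higher. The probe for NM_197957 read 241, 1104 and 1163, or 5.05-fold and 4.05-fold higher. For NM_145114 the intensities were 168, 461 and 398, or 3.02-fold and 1.99-fold higher. The probes therefore had one direction against control but differed in the order of the agents. Set directly against CAN, OA gave a log2 difference of 0.48 on the brightest probe, -0.32 on the second and -0.60 on the dimmest. Whether the probes read different sets of MAX transcripts was not tested.

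MXD1 (also called MAD1), the classical MYC antagonist of differentiating cells, was the member with the largest increase in signal under each agent. Its brighter probe read 524 in control, 2639 under CAN and 7877 under OA, which was 5.55-fold higher under CAN (log2 difference 2.47) and 12.6-fold higher under OA (3.66). A higher log2 difference was seen for 938 genes under CAN and for 232 under OA. The second MXD1 probe was dim in control cells, at 45.2, where the lowest signal well above background was 35.0, and read 346 and 735 on the treated arrays. It gave 8.43-fold and 13.6-fold higher signals. OA exceeded CAN by 2.27-fold on the brighter probe and 1.62-fold on the other, so the order control, CAN, OA was the same on each.

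MXI1 (MXD2), the next repressor, separated the agents. Its brightest probe read 2286 in control, 592 under CAN and 2387 under OA. It was 3.51-fold lower under CAN (log2 difference -1.81), whereas the difference under OA was -0.19. The second detected probe, for the same transcript NM_130439, read 688, 213 and 684, with log2 differences of -1.55 and -0.26. Directly compared, OA was 3.07-fold and 2.44-fold higher than CAN on these probes. The sign of the difference between OA and control turned to 0.06 without scaling, so it lay near 0 in either case.

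MXD3, the family member that is expressed in proliferating cells in S phase, was lower in treated cells on its bright probe. Intensities were 5141, 1350 and 2320, which was 3.46-fold lower under CAN and 2.64-fold lower under OA. Its other probe, for NM_001142935, was close to background at 61.0, 52.2 and 109, and differed from control by less than 1.5-fold on both treated arrays. With the median over both probes, the difference under OA was -0.41 in place of -1.40, below 1.5-fold.

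MXD4 (MAD4), a repressor of resting cells, changed little on its brighter probe, with 527, 434 and 717 and log2 differences of -0.14 and 0.19. The dimmer probe read 99.3, 37.9 and 81.2, close to background on the treated arrays. It was 2.38-fold lower under CAN, and under OA its difference was -0.55. MNT, the most broadly expressed MYC antagonist, read 4642, 3634 and 7162 on its brighter probe, with log2 differences of -0.21 and 0.37. The other MNT probe read 517, 275 and 898, which was 1.70-fold lower under CAN and within 1.5-fold under OA. Between the agents, the brighter MNT probe had a log2 difference of 0.58, just under the threshold, and the other 1.31, with OA higher on each.

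MLX, the partner of the glucose-sensing factors, had a single probe with 2804 in control cells, 1565 under CAN and 1672 under OA. It was 1.63-fold lower under CAN (log2 difference -0.70) and 2-fold lower under OA, and between the agents it differed by less than 1.5-fold. Of the E-box carriers shown above, MLX was thus lower under each agent, and the brightest probes of MXD4 and MNT stayed within 1.5-fold of control.

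**Figure D3:**
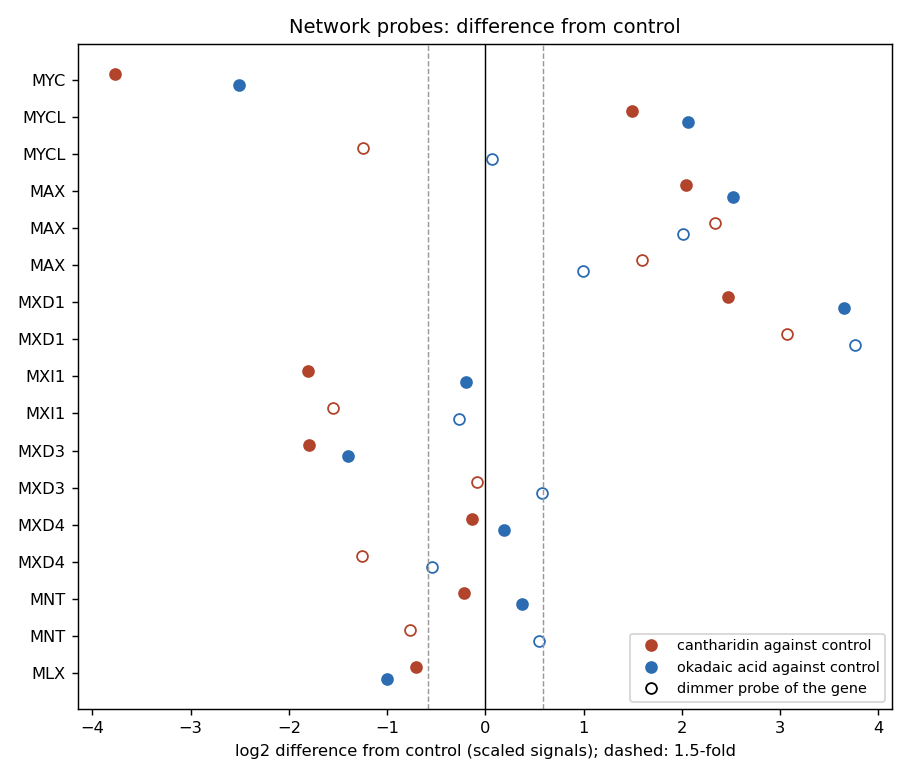
Log2 difference from control of each network probe above background, for cantharidin (red) and okadaic acid (blue), with filled points for the brightest probe of a gene, open points for its dimmer probes and dashed lines at 1.5-fold. Each point is 1 array against the same control array, without error bars. MYC lies furthest left (-3.77 and -2.51), all MAX and MXD1 probes lie right of the dashed line, and MXI1 passes the dashed line under cantharidin (-1.81) and lies at -0.19 under okadaic acid.

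In the direct comparison of OA with CAN, MYC, MXD1 and MXI1 were at least 1.5-fold higher under OA and no member was at least 1.5-fold lower. The count of 3 higher was 8 without scaling and 5 with the median over a gene's probes. The background was 29.5% higher and 22.3% lower of 16200 genes (51.8% in either direction). Of the 17 probes, 9 were higher and 1 lower, beside 28% and 22.5% of 25771 probes (50.5% in either direction). On their brightest probes, MAX, MYCL, MXD3, MXD4, MNT and MLX stayed within 1.5-fold. A dimmer probe was at least 1.5-fold higher under OA for MYCL, MNT, MXD4 and MXD3. The dimmest MAX probe was at least 1.5-fold lower. The median log2 difference of the members was 0.56, beside 0.13 over all genes. Spot noise, taken from probes with 10 spots of like brightness, had an SD of 0.09 for the log2 difference of MXD1, MXI1 and MNT, so differences of this kind exceed the noise of the spots, while the spread between cultures is unknown.

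Around the network, 8 lists of related genes were described in the same way. Their counts are to be read beside the shares of all genes, which were 27.5% higher and 34.1% lower under CAN and 28.1% higher and 28.8% lower under OA, and their medians beside -0.16 and 0.01. In the list of other E-box factors and MYC partners, 14 genes held 5 higher and 3 lower under CAN, and of 13 compared 4 were higher and 2 lower under OA. MYCBP, which binds MYC and raises its activity, was 7.07-fold lower under CAN and 1.95-fold lower under OA. BHLHE41, an E-box repressor of the circadian clock, was 8.94-fold higher under CAN and 5.59-fold higher under OA. MGA, a large repressor that pairs with MAX, had a log2 difference of -0.46 under CAN and was 2.83-fold higher under OA, which put OA 3.90-fold above CAN. MLXIP and MLXIPL are named as the partners of MLX, and were chosen after their values were seen. MLXIP gave opposite directions on its probes under CAN, with log2 differences of 1.17 and -1.63, and MLXIPL stayed within 1.5-fold of control under each agent.

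Corepressors of the SIN3, histone deacetylase and NCoR complexes, through which MXD proteins silence genes, moved in either direction. Of 18 compared, 6 were higher and 5 lower under CAN, and likewise 6 and 5 under OA, close to the background shares. ING1, a histone-reading subunit, had log2 differences of 2.48 under CAN and 2.56 under OA. SIN3B was 3.70-fold higher under CAN and 1.84-fold higher under OA. HDAC2 was 3.19-fold and 1.65-fold lower. BRMS1 was 2.10-fold higher under CAN and 4.88-fold higher under OA, with both of its probes in that direction.

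MYC cofactors also split, with 7 of 18 higher and 6 lower under CAN and 7 higher and 5 lower under OA. EP300, a histone acetyltransferase, was 6.42-fold and 5.74-fold higher under CAN and OA. RUVBL1, an ATPase of chromatin remodelling complexes, was 5.78-fold and 5.80-fold lower. CREBBP, the paralogue of EP300, was 5.26-fold higher under CAN, had a log2 difference of 0.55 under OA and was 3.59-fold lower under OA than under CAN. WDR5, which anchors MYC to chromatin, was 3.45-fold lower under OA and had a log2 difference of -0.29 under CAN.

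The next list held genes that act on the phosphorylation or turnover of the MYC protein, including genes that stabilise it. Of 20 compared, 7 were higher and 8 lower under CAN and 7 higher and 9 lower under OA. FBXW7, the ubiquitin ligase subunit that marks MYC for destruction, was 2.79-fold higher under CAN and 9.24-fold higher under OA, with intensities of 210, 533 and 2320 on the control, CAN and OA arrays. SKP2, another ubiquitin ligase subunit with a role in MYC turnover, was 14.9-fold lower under CAN, and its log2 difference under OA was -2.04. It read 58.3 under CAN, where the lowest signal well above background was 21.9, so the size of that fold is uncertain. The mitotic kinases PLK1 and AURKA, which can stabilise MYC proteins, were 8.61-fold and 3.58-fold lower under CAN. Under OA, PLK1 was 5.92-fold lower, whereas AURKA had a log2 difference of 0.07 from control and was 3.76-fold higher than under CAN. The dimmer PLK1 probe had log2 differences of -1.93 under CAN and -2.01 under OA. USP37, a deubiquitinase, was 9.24-fold higher under OA on its brighter probe, while the log2 difference of the other was 1.07 in place of 3.21. Under CAN the brighter probe had a log2 difference of 0.34. CIP2A, an inhibitor of PP2A that protects MYC, was below the background limit on every array.

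MYC-activated genes of ribosome synthesis had a median log2 difference of -0.29 under CAN, with 4 of 29 higher and 13 lower, beside -0.16, 27.5% and 34.1% for all genes. Under OA the median was 0.00, with 10 higher and 5 lower, beside 0.01, 28.1% and 28.8% for all genes. Directly compared, 13 of the 29 were at least 1.5-fold higher under OA than under CAN and 2 lower, with a median of 0.42, beside 29.5%, 22.3% and 0.13 for all genes. WDR74, NOP58 and RRP12, which act in the processing of ribosomal RNA, were 8.62-fold, 6.96-fold and 5.76-fold higher under CAN and 7.76-fold, 7.29-fold and 5.10-fold higher under OA, against the direction of MYC. RRS1, needed for the large ribosomal subunit, was 4.07-fold lower under CAN and had a log2 difference of 0.02 under OA.

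MYC-activated genes of growth and metabolism had medians of -0.45 under CAN and -0.58 under OA. Of 32 compared, 6 were higher and 15 lower under CAN, and 2 higher and 16 lower under OA. The shares of all genes were 27.5% higher and 34.1% lower under CAN and 28.1% and 28.8% under OA. SHMT1, an enzyme of one-carbon metabolism, was 32.8-fold lower under CAN and 19.1-fold lower under OA, and its probes shared the direction. Its brightest probe read 1222 in control, 33.8 under CAN and 76.4 under OA. The lowest signals well above background were 21.9 under CAN and 58.0 under OA, so the size of these folds is uncertain. CAD, which starts pyrimidine synthesis, was 6.17-fold lower under CAN and 6.09-fold lower under OA. APEX1, a DNA repair enzyme, was 8.42-fold and 3.44-fold lower. CCND2 (cyclin D2) was 10.5-fold higher under CAN, had a log2 difference of 0.33 under OA and was 8.32-fold lower under OA than under CAN. It read 86.0 in control cells, where the lowest signal well above background was 35.0, so the size of the CAN fold is uncertain.

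Genes that MYC represses, largely through MIZ1, did not share a direction either. Under CAN 5 of 10 were higher and 4 lower, and under OA 4 of 8 higher and 3 lower. NDRG1, a stress-induced gene, was 11.2-fold higher under CAN and 3.08-fold higher under OA. GADD45A was 5.81-fold and 2.20-fold higher. CDKN1B (p27) was 18.0-fold lower under CAN and 4.35-fold lower under OA on its brighter probe. Its other probe had log2 differences of -2.53 and -1.10. CDKN1C (p57), another inhibitor of cyclin-dependent kinases, read 13557 in control cells, 6046 under CAN and 285283 under OA, which was 35.9-fold apart between the agents. Of the 4 targets of MLX and its partners, TXNIP was far lower under CAN (log2 difference -6.59) and OA (-3.85). It read 38.9 under CAN, where the lowest signal well above background was 21.9, so the size of that difference is uncertain. In the same list ARRDC4, dim at 50.8, 32.8 and 92.9, was 1.53-fold higher under OA. That count of 1 higher was 0 with normexp, median scaling, quantile normalization or a 2-fold threshold. KLF10 and PKLR stayed within 1.5-fold.

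**Figure D4:**
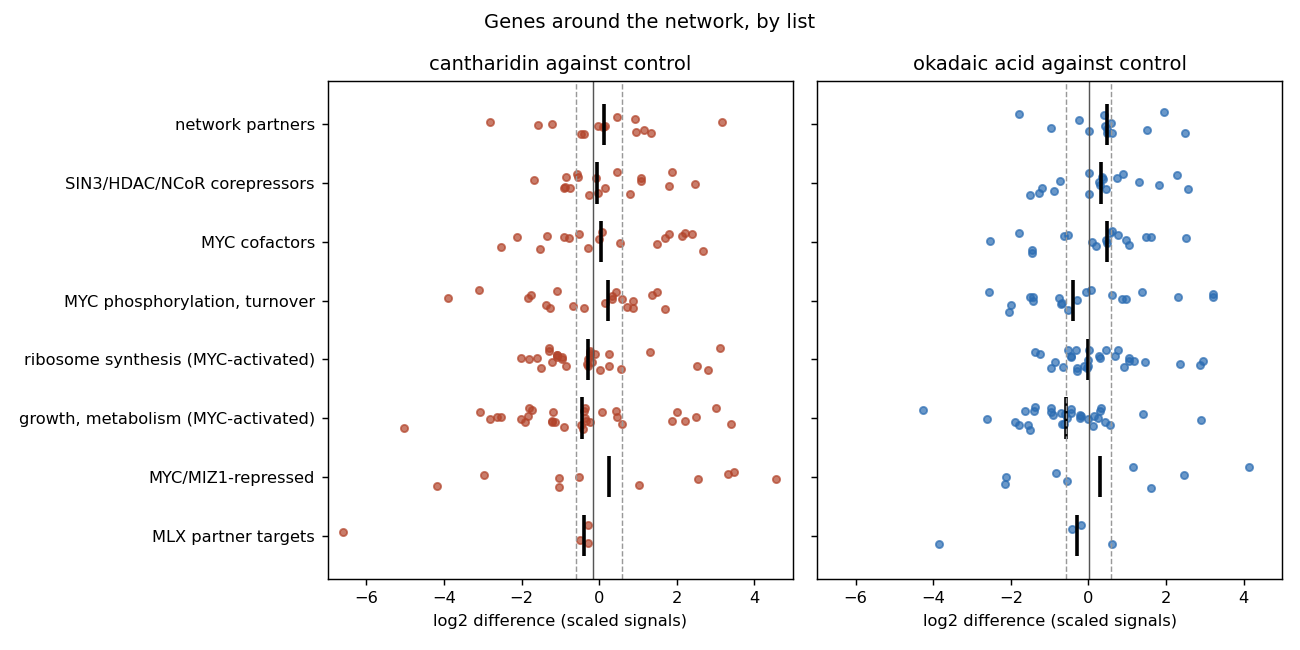
Log2 difference from control of the genes in 8 lists around the network, under cantharidin (left) and okadaic acid (right), with 1 point per gene, a black bar at the list's median, a grey line at the median of all genes and dashed lines at 1.5-fold. Vertical scatter within a row carries no value. The lists of MYC-activated growth and metabolism genes have medians of -0.45 and -0.58, and all but 1 of the lists hold genes on both sides of 0 under cantharidin, the exception being the MLX partner targets.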

How the data were processed

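Gene expression was read on 3 Agilent 1-colour arrays (Cy3), with 1 array per group. Sample titles gave the groups. The spot intensity files deposited by the authors came from Feature Extraction 11.0.1.1, whose processed signal is background-subtracted and detrended within each array, with probe annotation on hg19. A deposited table holds log2 values for 30923 probes, whose normalization is not given in the sources used here. Each of its columns followed the array of the same sample (r of at least 0.998). It served as an alternative. Saturation, outlier and background flags came with the spots, and no transcript spot was saturated.

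Spots with outlier flags were left out, the log2 intensity of the others was averaged per probe, and each array's 75th percentile was subtracted. Probe accessions were looked up, ignoring versions, in a RefSeq table (GRCh38.p14), and 25705 probes matched a gene. A gene was represented by its brightest probe over the 3 arrays, and entered a comparison if either array had it well above background. No pseudocount was used. The lowest signal well above background was 35.0, 21.9 and 58.0 on the control, CAN and OA arrays, and the number of arrays limits the precision. The members and lists were chosen with earlier results of these data known. Of each list at most 4 genes per comparison were named, those with the largest change on arrays that both measured them, and the 3 genes nearest to MYC by Euclidean distance. CIP2A, MLXIP, MLXIPL and TRPC4AP were named outside that rule, after their values were seen. A gene that the rule names is not reported here. USP36 had no matched probe. The counting code was run on simulated data with planted changes well past the threshold, which does not test the calls made here. Alternatives were normexp with an offset of 50 (on the median spot signal), other scalings, filters, a 2-fold threshold, the array floor, the deposited table and the median over probes. R 4.3.3, limma 3.58.1, Python 3.11.15, numpy 2.4.6, pandas 2.3.3 and matplotlib 3.10.9 were used.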

Additional observations from a re-analysis of the deposited data

Results flagged for a closer look

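Of the 9 members compared, none was past the threshold upward under one agent and downward under the other. Among the listed genes, 6 did so, and the difference between the agents was not tested. The share of all genes that did so was not counted, so neither result can be set beside it. CDKN1C had log2 differences from control of -1.03 under CAN and 4.14 under OA. DDX18, an RNA helicase of ribosome synthesis, had -1.59 and 0.77. FBXO32, a ubiquitin ligase subunit, had -1.27 and 1.37, and TRRAP, a scaffold of the acetyltransferase complexes that MYC recruits, had -0.78 and 1.04. HDAC3, the deacetylase of the NCoR complex, went the other way with 1.07 and -0.89, as did TRPC4AP, a ubiquitin ligase adaptor, with 0.59 and -0.68. The opposite signs held in all 11 alternatives for each of the 6 genes. Each of these genes had 1 probe, well above background on all 3 arrays. The filters, the array floor, the 2-fold threshold and the median over probes therefore could not change a sign. Only normexp, the other scalings, quantile normalization and the deposited table could. Both differences stayed past the threshold in all 11 for CDKN1C and FBXO32, in 10 for DDX18 and HDAC3, in 9 for TRRAP and in 8 for TRPC4AP.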

How the results depend on the processing

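The log2 difference of MYC lay between -3.91 and -3.61 under CAN and between -2.63 and -2.25 under OA over 10 alternatives, that of MXD1 between 2.33 and 2.77 and between 3.48 and 3.91, and that of MAX between 1.84 and 2.11 and between 2.02 and 2.78. The brightest probes of these genes were well above background on every array, so the filters and the array floor could not change their values. For MYC, with 1 probe, the median over probes could not either. Neither agent's count of members higher or lower than control moved by more than 1.5 times. Between the agents, the number of members higher under OA was 3, and it was 8 without scaling and 5 using each gene's median over its probes. Without scaling, the median of all genes in that comparison was 0.52 in place of 0.13. Over all lists together, 46 genes were lower under OA than control, and 28 at a 2-fold threshold. Lower under OA than CAN were 38, with 24 both without scaling and at 2-fold. Of single lists, ribosome synthesis genes lower under OA than CAN went from 2 to 0 in these settings, growth and metabolism genes lower under OA than control from 16 to 9 at 2-fold, and those higher from 2 to 5 without scaling. Network partners higher under OA went from 4 to 9 without scaling, and those higher under CAN from 5 to 3 at 2-fold or with the median over probes. The SIN3, HDAC and NCoR list held 1 gene lower under CAN and 3 under OA at 2-fold in place of 5 each. MYC turnover genes higher at 2-fold were 3 under CAN and 4 under OA in place of 7 each, cofactors higher under OA 4 in place of 7, network partners lower under OA 1 in place of 2, and ribosome synthesis genes lower under OA 2 in place of 5. MIZ1-repressed genes higher under CAN were 3 in place of 5 when all 3 arrays had to be above background. MLX targets lower under CAN were 2 in place of 1 without scaling, and those higher under OA 0 in place of 1 in 4 settings. Between the agents, corepressors higher went from 8 to 3 at 2-fold and MLX targets from 2 to 1 with normexp, while partners lower went from 4 to 0 and turnover genes from 7 to 3, each without scaling and at 2-fold. List medians against control took the other sign in some setting for the partners, corepressors, cofactors and MIZ1-repressed genes under CAN and for ribosome synthesis genes under OA. Using the median over probes, MYCL was no longer counted higher and MXD4 was counted lower under CAN, and MXD3 was no longer counted lower under OA. MNT passed the threshold under OA without scaling, and between the agents in 5 settings. Causes were not tested. No paired analysis was possible because each group had 1 array. Leaving out a replicate was not possible for the same reason. MYCL, MXD3 and MXD4 on their second probes and MYCN lay near or below the arrays' background, which limits their values.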

Other observations

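Genes of the arrays were also split by the E-box CACGTG in the 250 bases before their start, as a description with no test. Under CAN, 1341 genes with the E-box had a median log2 difference of -0.28, beside -0.16 for 11688 genes without it. Of the former 38.9% were at least 1.5-fold lower and 23.9% higher, and of the latter 34.2% and 27.7%. Under OA the medians were -0.13 for 1316 genes with the E-box and 0.01 for 11367 without it, with 34.7% and 28.7% at least 1.5-fold lower. Between the agents the medians were 0.15 and 0.13. Other features that go with the motif, such as base composition, were not compared.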
